A study of Rattus norvegicus with 10 samples.

Results

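Sall1, P2ry12, Gpr34, Tmem119, Slc2a5 and Cx3cr1 are genes by which resting (homeostatic) microglia are recognised, and they were taken by name from the rows of the study's supplementary expression table. These 6 genes were followed in a count table of 32883 Ensembl genes, of which 12199 passed the filter on low counts, all 6 among them. The table pairs no identifier with a name. Sall1 is ENSRNOG00000013907, and the other 5 were tied to their identifiers by their values, each with a next-best match at least 2.22 times as far off.

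The libraries came from CD11b+ cells, selected with antibody-coupled magnetic beads from the dissociated hemorrhagic striatum of male Sprague-Dawley rats, 12 weeks old in the study's methods, 3 days after an intracerebral hemorrhage (ICH). In the ICH + rhCDNF group, 5 libraries came from rats given recombinant human cerebral dopamine neurotrophic factor (rhCDNF) into the ventricle 1 h after ICH. In the ICH + Saline group, 5 libraries came from rats that had the same hemorrhage and received saline vehicle by the same route. No library of uninjured striatum was analysed here, so all values are those of injured tissue. The study used collagenase and autologous blood models in rats, and which of them gave the sequenced cells is not given in the sources used here. CD11b is an integrin that microglia share with infiltrating monocytes and macrophages, so the selection does not separate these cells. Libraries are named by the sequencing index of their column, S6 to S10 for ICH + rhCDNF and S1 to S5 for ICH + Saline, which is not the replicate number of the sample titles.

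Microglia settle in the brain during embryonic life and maintain themselves there, apart from the monocytes that enter after a hemorrhage. In mouse, the zinc-finger transcription factor SALL1 is found among myeloid cells almost only in microglia, and microglia that lose it take on features of inflammatory phagocytes. P2RY12 is the ADP receptor that steers microglial processes to damaged cells, GPR34 a receptor for lysophosphatidylserine, CX3CR1 the receptor for the neuronal chemokine fractalkine, SLC2A5 the fructose transporter GLUT5 and TMEM119 a membrane protein used to stain microglia. CX3CR1 is also carried by many blood monocytes. Several of these genes are known to be turned down when microglia become activated.

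The upstream sequence of 3 of the 6 genes was found by symbol in RefSeq promoter windows of the rat build GRCr8, a later build than the Rnor_6.0 on which the reads were counted. The sequences are shown because the 6 genes varied together over the libraries, and each gives the 250 bases before the start of the gene, 5′ to 3′ on its own strand. Capitals mark the only matches to the 2 motifs searched on both strands, the core GAGGAA (reverse complement TTCCTC) of the myeloid factor PU.1 and the MEF2-type motif CTANNNNTA (reverse complement TANNNNTAG).
Gpr34, chrX:11785837-11786086, minus strand: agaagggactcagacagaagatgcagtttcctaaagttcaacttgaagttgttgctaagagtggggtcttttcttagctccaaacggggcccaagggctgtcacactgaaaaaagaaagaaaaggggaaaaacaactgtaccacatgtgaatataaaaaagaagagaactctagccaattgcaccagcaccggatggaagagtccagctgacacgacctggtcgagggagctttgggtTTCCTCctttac
Slc2a5, chr5:165865929-165866178, plus strand: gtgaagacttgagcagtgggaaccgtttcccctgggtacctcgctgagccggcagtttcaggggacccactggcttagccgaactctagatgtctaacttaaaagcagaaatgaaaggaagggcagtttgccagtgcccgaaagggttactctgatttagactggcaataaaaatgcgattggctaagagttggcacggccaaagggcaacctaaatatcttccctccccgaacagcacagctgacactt
Cx3cr1, chr8:128677067-128677316, minus strand: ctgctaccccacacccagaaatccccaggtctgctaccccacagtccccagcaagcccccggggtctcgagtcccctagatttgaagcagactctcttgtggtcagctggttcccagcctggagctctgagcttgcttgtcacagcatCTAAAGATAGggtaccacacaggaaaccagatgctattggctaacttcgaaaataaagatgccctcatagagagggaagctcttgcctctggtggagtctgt
Gpr34 held the PU.1 core on the opposite strand, 12 to 7 bases before the start, and 23.3% of 33469 promoter windows of this length held it on either strand. Cx3cr1 held the MEF2-type motif 102 to 94 bases before the start and again, shifted by 1 base, on the opposite strand, and 6702 of the 33469 windows held it on either strand. Neither motif was found in the window of Slc2a5, and matches of the PU.1 core and the MEF2-type motif did not overlap each other. A match of letters is a description and not a binding site.

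All 6 genes averaged higher in ICH + rhCDNF libraries than in ICH + Saline libraries, by 1.22- to 1.61-fold, and in none of them did the groups separate. The higher averages came mainly from 2 rhCDNF libraries, S6 and S9, which were the highest 2 of the 10 libraries for every one of the 6 genes, an arrangement seen in 1222 of the 12199 genes tested. No gene passed the test after adjustment. The 6 were taken from rows with small p-values in the study's own comparison of these libraries, so their shared direction is not independent evidence. Levels are given as CPM, the counts of a gene brought to a common library size after scaling by the trimmed mean of M values (TMM). CPM values of different genes are not compared as levels, since they are not divided by gene length. In these bulk samples, a larger share of microglia among the CD11b+ cells and more of the RNA per microglial cell cannot be told apart.

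**Figure D1:**
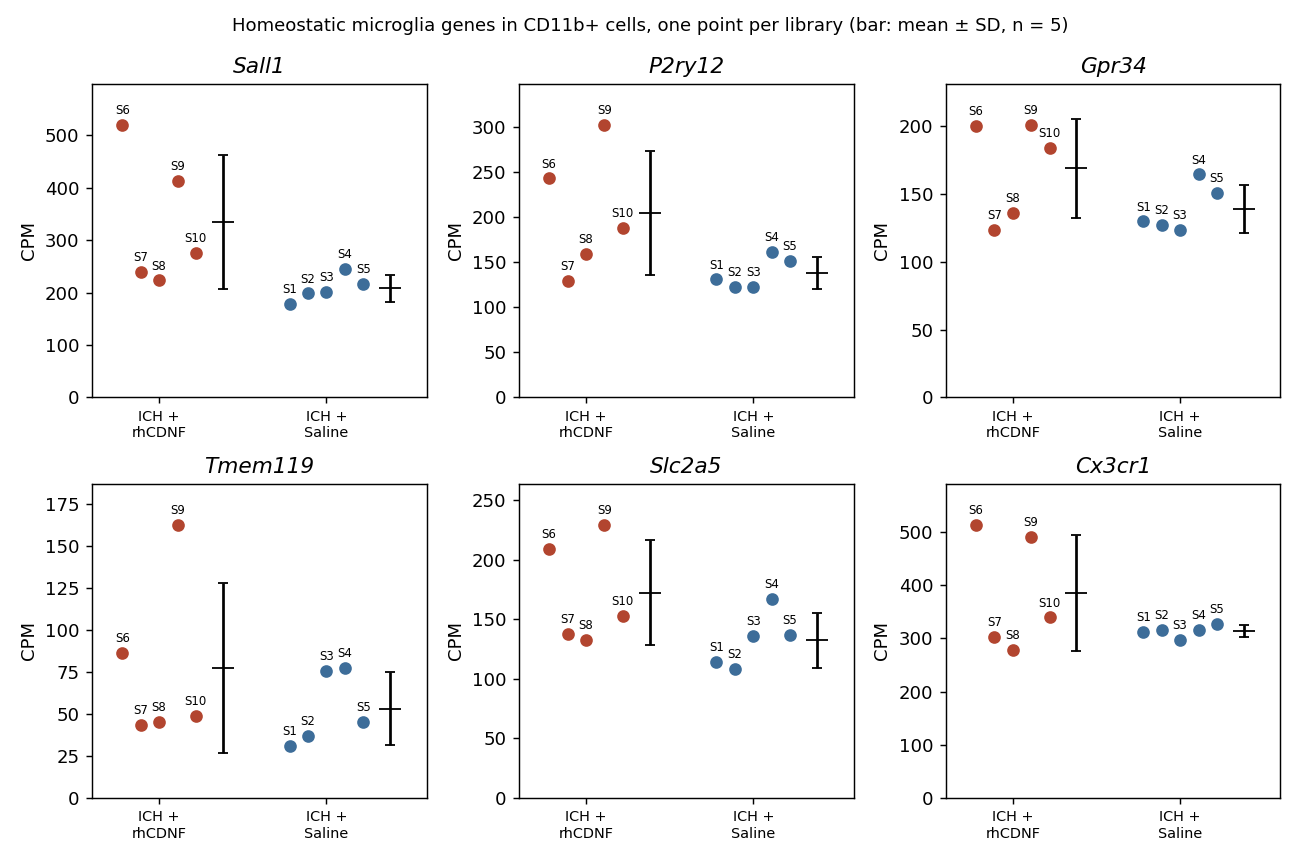
CPM of each of the 6 genes in every library, ICH + rhCDNF on the left and ICH + Saline on the right of each panel, with labels giving the library and bars the mean ± SD (n = 5 each). S6 and S9 are the highest 2 libraries in each panel, and the points of both groups overlap in each.

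Sall1, the transcription factor, had 521, 239, 223, 414 and 275 CPM in the rhCDNF libraries S6 to S10, against 178, 198, 202, 246 and 217 CPM in the saline libraries S1 to S5. Libraries S6, S9 and S10 lay above every saline library, while S7 and S8 lay below the highest of them, S4. The mean was 334 ± 128 CPM in the rhCDNF-treated group and 208 ± 25.3 CPM in the saline-treated group (SD, n = 5 each). The fitted log2 fold change was 0.68 (SE 0.21), 1.61-fold, with an adjusted p of 0.365 in edgeR's quasi-likelihood test with Benjamini-Hochberg adjustment over all genes. The spread was wider with rhCDNF, with a coefficient of variation of 38.4% in the rhCDNF-treated group and 12.1% in the saline-treated group.

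P2ry12, the ADP receptor, had 242, 129, 159, 302 and 188 CPM in S6 to S10, against 131, 122, 122, 161 and 151 CPM in S1 to S5. Its highest library was S9, with S6 second, and S7 lay among the lower saline libraries. The mean was 204 ± 69.0 CPM in rhCDNF-treated rats and 138 ± 17.7 CPM in saline-treated rats (SD, n = 5 each). The log2 fold change was 0.57 (SE 0.20), with an adjusted p of 0.371 in edgeR's quasi-likelihood test.

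Gpr34, the lysophosphatidylserine receptor, varied over the smallest range of the 6 genes, with its highest library at 1.63 times its lowest. It had 200.1, 124, 136, 201 and 184 CPM in S6 to S10, against 129.9, 127, 124, 165 and 151 CPM in S1 to S5. In 3 rhCDNF libraries the level was above every saline library, and in S7 it was next to the lowest saline value. The log2 fold change was 0.28 (SE 0.14, edgeR adjusted p = 0.433), from means of 169 ± 36.7 CPM with rhCDNF and 139 ± 17.6 CPM with saline (SD, n = 5 each).

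Cx3cr1, the fractalkine receptor, was nearly level over the saline libraries and split in the rhCDNF libraries. It had 513, 303, 278, 492 and 339 CPM in S6 to S10, against 312, 316, 298, 316 and 327 CPM in S1 to S5. The coefficient of variation was 28.5% in the rhCDNF-treated group and 3.36% in the saline-treated group. The rhCDNF libraries S6, S9 and S10 lay above every saline library, and S8 lay below all of them. The log2 fold change was 0.30 (SE 0.16, edgeR adjusted p = 0.453), from means of 385 ± 110 CPM with rhCDNF and 314 ± 10.5 CPM with saline (SD, n = 5 each).

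Slc2a5, the fructose transporter, had 209, 138, 133, 229 and 153 CPM in S6 to S10, against 114, 108, 136, 167 and 137 CPM in S1 to S5. Only S6 and S9 exceeded the highest saline library, S4. The mean was 172 ± 44.0 CPM in rhCDNF-treated rats and 132 ± 23.2 CPM in saline-treated rats (SD, n = 5 each). The log2 fold change was 0.38 (SE 0.17, edgeR adjusted p = 0.395).

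Tmem119, the membrane marker, varied most, with its highest library at 5.26 times its lowest. It had 86.5, 43.6, 45.0, 162 and 48.9 CPM in S6 to S10, against 30.9, 36.7, 75.5, 77.4 and 45.0 CPM in S1 to S5. The rhCDNF libraries S7, S8 and S10 lay within the saline range, which itself fell into low (S1, S2), middle (S5) and high (S3, S4) values. The mean was 77.3 ± 50.8 CPM with rhCDNF and 53.1 ± 21.9 CPM with saline (SD, n = 5 each). The log2 fold change was 0.54 (SE 0.39), with an adjusted p of 0.555 in edgeR's quasi-likelihood test. Without S9 it was 0.08.

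The quasi-likelihood test of edgeR called 0 of the 6 genes at an adjusted p under 0.05, and 0% of the 12199 genes tested. At an unadjusted p under 0.05 in the same test, 3 of the 6 were higher with rhCDNF, namely Sall1, P2ry12 and Slc2a5, and 6.89% of all genes tested were higher at that level. The 6 names came from rows of the supplementary table with small p-values in the study's own comparison. This count is therefore not independent evidence, and the share over all genes is not a like background for it. DESeq2 called 0.0656% of the genes as higher and edgeR's likelihood ratio test 0.0246%, in each case 0 of the 6. In 0 of the 6 did every rhCDNF library exceed every saline library, against 0.975% of all genes tested. The lowest raw count of any of the 6 genes in a library was 524, for Tmem119, where counting alone gives an error of 4.37%, far below the spread between libraries.

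The contrast depended on S6 and S9. Leaving out each library in turn kept all 6 log2 fold changes above 0, and that of Sall1 lay between 0.47 (without S6) and 0.80 (without S8). For P2ry12 it lay between 0.39 (without S9) and 0.70 (without S7). For Cx3cr1 it was 0.17 without S6 and 0.19 without S9, against 0.30 with all libraries. With both S6 and S9 left out, an alternative chosen after seeing the data, the log2 fold change was 0.24 for Sall1, 0.21 for P2ry12, 0.09 for Gpr34, 0.09 for Slc2a5, -0.03 for Cx3cr1 and -0.21 for Tmem119. Since these libraries were picked as the highest, this lowers the rhCDNF mean by construction, and tests without them are not evidence. Sall1 and P2ry12 had the highest of these 6 values.

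**Figure D2:**
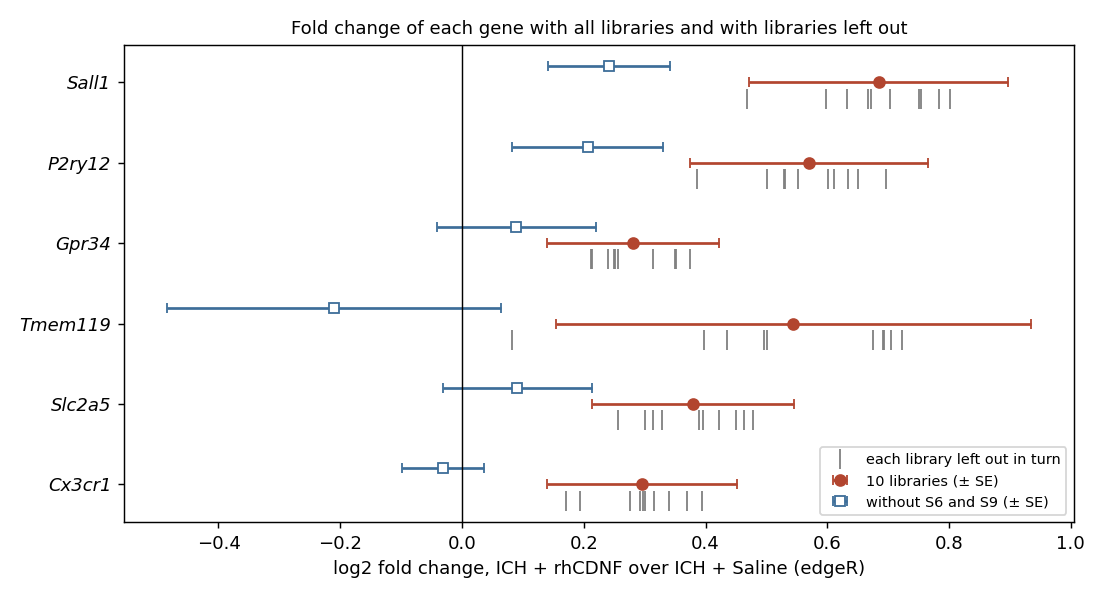
Log2 fold change of ICH + rhCDNF over ICH + Saline for each gene, from all 10 libraries (filled circles ± SE), with each library left out in turn (grey ticks) and without S6 and S9 (open squares ± SE). Sall1 is at 0.68 with all libraries and at 0.24 without both, and Tmem119 passes to -0.21.

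Whether the 6 genes moved as one was first read from their deviations within each library, the log2 CPM of a gene minus its mean over the saline libraries. In S6 all 6 deviations were positive, from 0.53 for Gpr34 to 1.33 for Sall1. In S9 they were again all positive, from 0.54 for Gpr34 to 1.71 for Tmem119, with Sall1 at 0.999. S6 and S9 thus had Gpr34, Slc2a5 and Cx3cr1 at similar heights and differed in the gene that led, Sall1 in S6 and Tmem119 in S9. In S10 the deviations ran from -0.02 for Tmem119 to 0.46 for P2ry12, while S7 and S8 held values of both signs, with means of -0.03 and 0.00. Among the saline libraries, Tmem119 had the deviation farthest from 0 in S1 to S4, from -0.68 in S1 to 0.64 in S4, while Cx3cr1 stayed between -0.07 and 0.06.

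**Figure D3:**
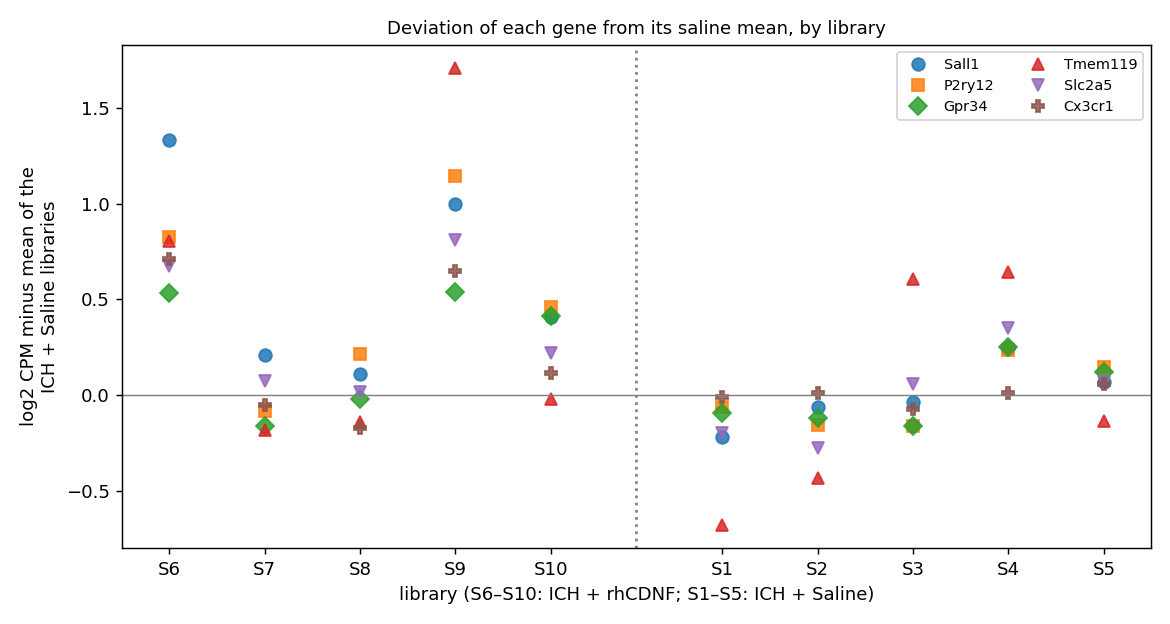
Log2 CPM of each gene minus its mean over the ICH + Saline libraries, for the ICH + rhCDNF libraries S6 to S10 on the left and the ICH + Saline libraries S1 to S5 on the right; each symbol is a gene. All 6 genes lie above 0.5 in S6 and S9, with Sall1 leading S6 and Tmem119 leading S9.

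Over the 10 libraries, Pearson correlations of log2 CPM between the 6 genes averaged 0.85 over the 15 pairs and ranged from 0.68 (Gpr34 with Tmem119) to 0.93 (P2ry12 with Gpr34). Sall1 had r of 0.92 with Cx3cr1 and Slc2a5, 0.90 with P2ry12, 0.86 with Gpr34 and 0.74 with Tmem119, and Spearman's rho of 0.61, 0.93, 0.84, 0.78 and 0.79 in that order. The first principal component of the 6 genes, centred but not scaled, held 86.1% of their variance. Its loadings were all of one sign, largest for Tmem119 (0.65), followed by Sall1 (0.44) and P2ry12 (0.40), and smallest for Gpr34 (0.24). Without scaling, genes that vary more weigh more, and Tmem119 varied most, so its loading does not rank it as the closest to the others. These are descriptions of 10 libraries that share preparation, scaling and the contrast itself. S6 and S9 were the highest 2 libraries for all 6 genes, so leaving them out narrows the range of each, which by itself lowers correlations. Over the remaining 8 libraries the mean correlation was 0.51, and the pairs came apart unevenly. P2ry12 with Gpr34 stayed at 0.92, Sall1 with Slc2a5 at 0.81 and Sall1 with P2ry12 at 0.77, while Sall1 with Cx3cr1 was at 0.31 and Tmem119 with Cx3cr1 at -0.07.

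Sall1 was then set against each of the other 5 genes within a library, as the difference of their log2 CPM, a ratio that does not depend on how libraries are scaled. If the 6 genes kept fixed proportions, these ratios would be the same in both groups. The ratio of Sall1 to Cx3cr1 was 0.02, -0.34, -0.32, -0.25 and -0.30 in S6 to S10, against -0.81, -0.67, -0.56, -0.36 and -0.59 in S1 to S5, so every rhCDNF library lay above every saline library. It averaged -0.24 ± 0.15 with rhCDNF and -0.60 ± 0.16 with saline (SD, n = 5 each), a difference of 0.36. The exact two-sided permutation test gave p = 0.00794, the smallest that 5 against 5 libraries allow, and 0.0397 adjusted over the 5 ratios. The ratio of Sall1 to any other gene separated the groups in this direction for 9.37% of the 12198 other genes tested, so such a separation was not rare for Sall1.

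The ratio of Sall1 to Gpr34 was 1.38, 0.95, 0.71, 1.04 and 0.58 in S6 to S10, against 0.45, 0.64, 0.71, 0.58 and 0.52 in S1 to S5. All rhCDNF libraries but S10 lay above every saline library, and the difference of 0.35 had an exact permutation p of 0.0397 (0.0661 adjusted over the 5 ratios). The ratio to Slc2a5 averaged 0.91 ± 0.23 with rhCDNF and 0.66 ± 0.13 with saline (SD, n = 5 each), with the same exact permutation p of 0.0397 (0.0661 adjusted), and only S6 exceeded every saline library. Against P2ry12 the ratio averaged 0.70 ± 0.28 with rhCDNF and 0.60 ± 0.12 with saline (SD, n = 5 each; exact permutation p = 0.492). Against Tmem119 it averaged 2.24 ± 0.51 with rhCDNF and 2.06 ± 0.49 with saline (SD, n = 5 each; exact permutation p = 0.635), and the groups covered almost the same range.

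Sall1 therefore differed from Cx3cr1 in its change between the groups, past 0.05 after adjustment, while its ratios to Gpr34 and Slc2a5 passed 0.05 only before adjustment and those to P2ry12 and Tmem119 did not pass. The difference from Cx3cr1 was 0.30 without S6, where it had an exact permutation p of 0.0159, the smallest that 4 against 5 libraries allow. Because the groups were fully separated on this ratio, leaving out any 1 library had to give this same exact permutation p of 0.0159. This is therefore no further check. The adjusted p for Cx3cr1 stayed under 0.05 only when the library left out was S2 or S10, and was 0.0794 for each of the other 8. Only without S2 or S10 did another ratio also reach the smallest p, so the adjusted p moved with the other ratios. Sall1 was chosen as the leading gene with earlier results of these data known, so these p-values describe the libraries and are not independent evidence. Cx3cr1 is also expressed by monocytes, and the part of monocyte RNA in its level was not tested. Only ratios with Sall1 were formed, so the difference from Cx3cr1 is not shown to be particular to Sall1. P2ry12 had a log2 fold change of 0.57, against 0.68 for Sall1 and 0.30 for Cx3cr1. The ratio of P2ry12 to Cx3cr1 was not tested.

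**Figure D4:**
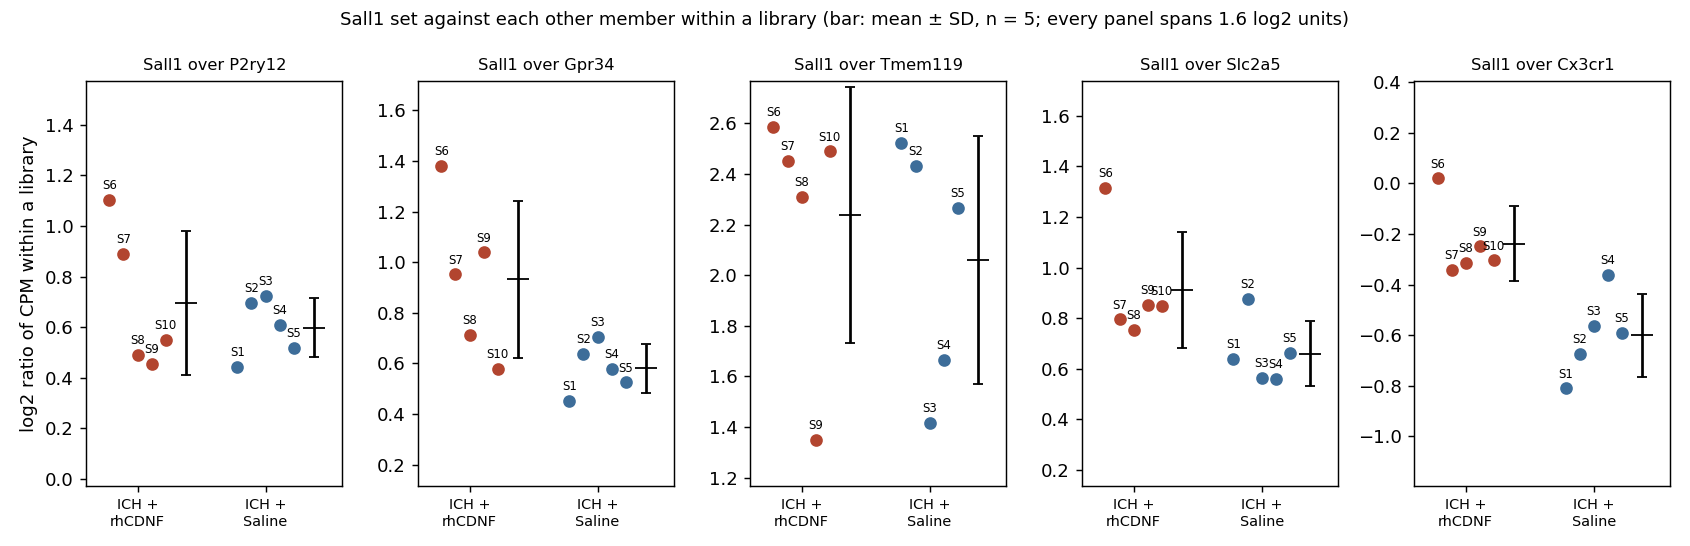
Log2 ratio of Sall1 CPM to the CPM of each other gene within a library, ICH + rhCDNF on the left and ICH + Saline on the right of each panel, with bars for the mean ± SD (n = 5 each). Against Cx3cr1 all 5 rhCDNF libraries lie above all 5 saline libraries, whereas against P2ry12 and Tmem119 the groups overlap.

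The genes whose levels followed Sall1 most closely over the 10 libraries were sought among all 12199 genes tested, of which 229 besides Sall1 (1.88%) had r over 0.9. Only 5 genes reached that r with Tmem119, 28 with Gpr34, 60 with P2ry12, 63 with Slc2a5 and 115 with Cx3cr1. The 4 named genes most like Sall1, the other 5 left out, were Ppm1k (r = 0.98), a mitochondrial phosphatase that activates branched-chain amino acid breakdown, AABR07028615.1 (r = 0.98), Lrp4 (r = 0.98), a receptor of the LDL receptor family, and Mef2c (r = 0.98), a MEF2 transcription factor. Names exist only for genes tied to the supplementary table, so closer unnamed genes were passed over. Ppm1k had 80.9, 40.8, 41.1, 65.1 and 47.9 CPM in S6 to S10, against 37.2, 38.9, 35.5, 46.7 and 38.6 CPM in S1 to S5, with the same lead of S6 over S9 as Sall1. Mef2c had 399, 250.2, 258, 363 and 286 CPM in S6 to S10, against 248, 253, 259, 277 and 259 CPM in S1 to S5, and was nearly level over the saline libraries.

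Other genes of homeostatic microglia showed the same 2 libraries on top. Of 30 listed, 17 could be tied to an identifier and tested, and S6 and S9 were the highest 2 libraries for 15 of them, against 1222 of all 12199 genes tested. The log2 fold change was above 0 for all 17, with a median of 0.40 against 0.00 over all genes tested. None passed the adjusted threshold, and 10 of the 17 were higher at an unadjusted p under 0.05 in edgeR's quasi-likelihood test, against 6.89% of all genes tested. Names were available only for rows of the supplementary table with small p-values in the study's own comparison. This count is therefore not independent evidence of direction, and the share over all genes is not a like background for it. The 10 include genes that the study itself named as higher with rhCDNF. Adgrg1, an adhesion receptor of microglia also known as GPR56, had 118, 54.1, 53.5, 99.7 and 63.5 CPM in S6 to S10, against 42.2, 58.8, 46.3, 58.1 and 52.8 CPM in S1 to S5. Cst3, the protease inhibitor cystatin C, had 5317 and 4855 CPM in S6 and S9 and 2148 to 2244 CPM in the other rhCDNF libraries, against 1920 to 2597 CPM with saline. P2ry13, an ADP receptor and neighbour of P2ry12 in the gene family, had 56.2, 30.4, 36.9, 69.0 and 42.9 CPM in S6 to S10, against 33.9, 28.0, 33.5, 38.3 and 36.4 CPM in S1 to S5, with S9 ahead of S6 as for P2ry12.

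Genes of phagocytes and of infiltrating cells were mostly lowest in S6. Of 11 listed genes of disease-associated microglia, 7 could be tied and tested, and all 7 were lowest in S6, as were 2738 of all 12199 genes tested. Their median log2 fold change was -0.31, against 0.00 over all genes tested, and 5 of the 7 were lower at an unadjusted p under 0.05 in edgeR's quasi-likelihood test, against 5.49% of all genes tested, while none passed the adjusted threshold. These names too came from rows with small p-values in the study's own comparison, so the share over all genes is not a like background here either. The 5 include genes that the study itself named as lower with rhCDNF. Gpnmb, a lysosomal glycoprotein of lipid-laden phagocytes, had 3963 CPM in S6 and 5903 to 6841 CPM in the other rhCDNF libraries, against 7369 to 8375 CPM with saline. Of 12 listed markers of monocytes and macrophages, 6 could be tied and tested, and 5 of these were lowest in S6 and none in S9, the exception for S6 being F10, a coagulation factor gene, which was highest there. Their summed level was 1708 CPM in S6 and 3292 CPM in S9, within a range of 1708 to 3292 CPM with rhCDNF and 2703 to 3506 CPM with saline, and none of the 6 was at 0. Lyz2, the lysozyme gene of myeloid cells, made up most of that sum, with 1306 CPM in S6 and 2616 CPM in S9. Without Lyz2, left out after its share was seen, the sum was 402 CPM in S6 and 671 to 770 CPM in the other rhCDNF libraries, with S9 at 676 CPM, against 766 to 857 CPM with saline. Mrc1, the mannose receptor of macrophages, had 148, 265, 298, 252 and 284 CPM in S6 to S10, against 345, 276, 306, 340.0 and 370 CPM in S1 to S5. S9 was the second lowest library after S6 for Mrc1 and Emilin2, but for none of the other markers. F10 had 21.9 CPM in S9, against 9.37 to 15.1 CPM with saline, and Lyz2 in S9 lay within its saline range of 1870 to 2739 CPM. The part of infiltrating cells in the levels of the 6 genes was not tested.

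Total counts lay between 14376582 and 16784638 per library, and both S6 and S9 fell within that range. Markers of other cells were few among the genes with a name. Slc1a2 of astrocytes had 0.622 to 2.80 CPM with rhCDNF and 0.825 to 1.93 CPM with saline, and Vwf of endothelium 32.8 to 75.0 CPM with rhCDNF and 21.8 to 59.8 CPM with saline. The red cell genes Hba-a1 and Hbb summed to 15.4 to 1060 CPM with rhCDNF and 10.3 to 28.2 CPM with saline, with the highest value in S8, where none of the 6 genes was high.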

How the data were processed

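Ribosomal RNA was removed from the RNA of CD11b+ cells, and directional libraries were read from one end. The authors trimmed the reads with Trimmomatic, aligned them to Rnor_6.0 with STAR and counted them per Ensembl gene with featureCounts of Subread, and the deposited values are these raw counts. By the submitters' processing notes the releases were 0.36 for Trimmomatic, 2.5.3a for STAR and 1.6.4 for Subread, while the methods give another STAR release and a different kit for ribosomal depletion than the labels. The strand setting and annotation release are not given in the sources used here.

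Columns carry a library number and an index and were assigned to groups, not to single samples, through the headings of the supplementary table. The methods name n as animals for each group of 5, and the p-values measure the spread between these libraries. Identifiers were tied to names by the SD over libraries of the log2 ratio of the supplementary TPM to CPM, where each was the other's best match and the next best was at least 1.5 times as large (789 of 1904 genes, all 6 genes of the report). Genes that co-vary closely are the hardest to tie, and a gene missing from those rows can lend its identifier to a wrong name. The supplementary table served for names only, and 1998 of its rows were used. No other columns of the count table were left out.

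The fit across genes used edgeR 4.0.16 under R 4.3.3 (filter by expression, TMM, quasi-likelihood test, Benjamini-Hochberg over 12199 genes, threshold 0.05). DESeq2 1.42.0, limma 3.58.1 (voom), edgeR's likelihood ratio test, other scalings, no filter and leaving out libraries were alternatives. Log2 CPM carries a prior count of 2. Ratios were compared with exact two-sided permutation tests. Within groups, the chi-square between libraries was at least 8 per gene, so none was a repeat of another. The tests were tested on simulated data. The 6 genes and the lists were chosen with earlier results of these data known. Named genes were these 6, the 4 named genes most correlated with Sall1 and up to 4 members of each list. Markers of neurons, oligodendrocytes and general myeloid cells could not be tied to identifiers and are not reported here.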

Additional observations from a re-analysis of the deposited data

Results flagged for a closer look

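Among 22 groups of 5 libraries examined (the CPM of 6 genes and 5 ratios of Sall1, in each group), 3 had a library far from the others, with a gap to its nearest neighbour over 0.71 of the group's range. Chance flags about 1 in 20 such groups, and the ratios share Sall1, so the 3 are not independent. The log2 ratio of Sall1 to Slc2a5 was 1.32 in library S6, above the other rhCDNF libraries. The log2 ratio of Sall1 to Cx3cr1 was 0.0202 in S6, again the highest of the rhCDNF libraries. The log2 ratio of Sall1 to Tmem119 was 1.35 in S9, the lowest of the rhCDNF libraries. No library was set apart in this way by the CPM of any of the 6 genes, or by any value in the saline-treated group.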

How the results depend on the processing

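No paired analysis was possible because the columns of the count table carry no replicate numbers of the sample titles. No gene of the 6 passed an adjusted p of 0.05 under any alternative, with adjusted p-values of Sall1 from 0.140 to 0.608, and the log2 fold changes kept their direction under the other tests, scalings and filter and with each library left out in turn. Without S6 and S9 together (chosen after seeing the data), the log2 fold change reversed for Tmem119 (-0.21) and Cx3cr1 (-0.0317). Without S6 and S9, 1 gene had an unadjusted p under 0.05, and the mean correlation was 0.51. Both values tend to fall when the highest libraries are left out, so they are descriptions only. The log2 ratio difference of Sall1 to Cx3cr1 without S6 and S9 was 0.28. The groups stayed apart by construction, since every rhCDNF library already lay above every saline library on this ratio. For the same reason the exact permutation p had to be 0.0357, the smallest that the remaining libraries allow. Adjusted over the 5 ratios it was 0.179. The difference no longer passed after adjustment, but with so few libraries this cannot show that it was lost. Leaving out each library in turn, the log2 ratio difference ran from 0.30 to 0.42 for Sall1 over Cx3cr1 (adjusted p from 0.0397 to 0.0794, since 4 against 5 libraries cannot give an exact permutation p below 0.0159), from 0.24 to 0.44 over Gpr34 and from 0.15 to 0.31 over Slc2a5, both past the threshold once, without S10 and without S2 in that order. It ran from -0.00246 (without S6) to 0.16 over P2ry12 and from 0.02 to 0.40 over Tmem119, where S9 decides the upper value. The number of genes with an unadjusted p under 0.05 ran from 2 to 5, highest without S7 or S8. A prior count of 0.5 and tie margins of 1.2 and 2 changed none of these calls or ties. Depth did not limit the 6 genes, while 5 libraries per group limit what the tests can show.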
